A study of Mus musculus with 24 samples.

Results

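The genes described here are the nuclear genes for the last stages of mitochondrial respiration in 4 kinds of neuron sorted from the adult mouse cortex. They encode the subunits of respiratory complexes III, IV and V and the electron carrier cytochrome c. Members were all genes whose mouse symbol begins with Uqcr, Cox4 to Cox8 or Atp5, together with Cyc1 and Cycs, on a nuclear chromosome and not annotated as a pseudogene. This gave 45 of the 36528 genes listed in each library: 9 of complex III, 18 of complex IV, 17 of complex V and 1 cytochrome c gene. Another 3 pseudogenes matched the names and were left out.

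The study sequenced RNA from 24 libraries of sorted neurons, 6 for each of the labels EXC, PV, SST and VIP, which the labels do not spell out. Every group came from adult mouse cortex digested with papain, and live cells were sorted as GFP+ or tdTomato+ and DAPI-, DAPI being a dye that enters dead cells. The fluorophore depended on a reporter line, whose driver gene is not named in the labels. No treatment is named, and ages are not given beyond adult. Female libraries numbered 2 in EXC, 2 in SST, 3 in PV and 4 in VIP, and the others were male. The labels do not say whether libraries came from separate animals or how many animals were pooled, and p-values therefore reflect no more than the spread among these 24 libraries.

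Complex III passes electrons from ubiquinol to cytochrome c, a small soluble carrier, and complex IV (cytochrome c oxidase) hands them to oxygen. The proton gradient built on the way turns complex V, the ATP synthase, which makes ATP. A few core subunits of complexes III, IV and V are encoded in the mitochondrial genome, and the rest, described here, are imported from the cytosol. Several complex IV subunits exist as a ubiquitous isoform and an isoform best known from heart, skeletal muscle, lung or testis. Fast-spiking parvalbumin interneurons are known for a high demand for ATP and for dense mitochondria.

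Many respiratory genes are known targets of the transcription factors NRF1, YY1 and the estrogen-related receptors (ERR), so the stretches before the listed starts of 3 members were read for their motifs. Shown are the member of complex V and the member of complex III with the largest F in the test of any difference between subtypes (Atp5g3, Uqcrh), and Cox6a1, the ubiquitous partner of the isoform gene Cox6a2. Each stretch holds the 200 bases before the gene start that RefSeq's promoter table uses on GRCm38.p6, 5′ to 3′ on the minus strand, at chr2:73911327-73911526, chr5:115348959-115349158 and chr4:116075071-116075270 in the order printed. The start listed for Atp5g3 is the outer end of the gene in GENCODE vM21, but RefSeq's gene span reaches 1138 bases further, so this stretch lies inside it. Capitals mark matches to the motifs searched.
Atp5g3: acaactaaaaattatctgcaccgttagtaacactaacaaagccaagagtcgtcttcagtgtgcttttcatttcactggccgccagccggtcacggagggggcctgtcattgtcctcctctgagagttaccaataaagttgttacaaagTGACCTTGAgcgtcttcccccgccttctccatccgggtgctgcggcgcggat
Cox6a1: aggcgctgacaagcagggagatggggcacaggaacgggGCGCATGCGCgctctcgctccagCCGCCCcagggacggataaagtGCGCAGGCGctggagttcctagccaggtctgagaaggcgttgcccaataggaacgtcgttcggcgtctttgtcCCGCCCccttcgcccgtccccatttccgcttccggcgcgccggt
Uqcrh: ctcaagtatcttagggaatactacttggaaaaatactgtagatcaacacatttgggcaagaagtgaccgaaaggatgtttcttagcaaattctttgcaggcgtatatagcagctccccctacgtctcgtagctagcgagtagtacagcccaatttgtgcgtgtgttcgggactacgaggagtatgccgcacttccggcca
The stretch of Atp5g3 held the ERR motif (TNAAGGTCA, here read on the other strand), that of Cox6a1 held NRF1 motifs (GCGCANGCG) and GC boxes (GGGCGG), and that of Uqcrh held none of the motifs searched.

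The promoter table held 34 of the 45 members, in windows of 300 bases, 250 before and 50 after the start. For 6 of the 34 every listed start lay inside the RefSeq gene span. It had no entry for Cyc1, Uqcrb, Uqcrc2, Uqcrq, Cox4i1, Cox4i2, Cox6a2, Cox6c, Cox8c, Atp5a1 and Atp5mpl. On either strand and with overlaps between motifs allowed, the NRF1 motif lay in 11 of the 34 windows (32.4%) and in 7.03% of the 27025 genes in the table. The 11 were Atp5c1, Atp5g2, Atp5g3, Atp5h, Atp5k, Atp5l, Atp5o, Cox6a1, Cycs, Uqcr11 and Uqcrc1. The YY1 motif (AAGATGGCG) was held by 2 members, Atp5j and Atp5j2 (5.88%, against 1.64% of all genes). The ERR motif was held by 1, Atp5g3 (2.94% against 1.43%). The GC box was held by 13 members (38.2%, and 38.2% of all genes). A match is a description of these letters, not a shown binding site.

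Levels are given in CPM, counts per 1000000 reads of nuclear genes, because reads of the mitochondrial genome took 14.4 to 52.9% of a PV library, against 3.84 to 9.86% in EXC, 4.41 to 7.87% in SST and 1.80 to 16.6% in VIP. Nuclear reads ran from 729778 to 3984053 in PV and from 3865261 to 15274524 in the 18 other libraries. The namesake genes stood where the labels put them: Pvalb lay at 219 to 266 in PV and reached 6.48 elsewhere, Sst at 837 to 1819.8 in SST and up to 161 elsewhere, Vip at 1939 to 2277 in VIP and up to 6.35 elsewhere, and Slc17a7, the vesicular glutamate transporter gene, at 195 to 849 in EXC and up to 68.4 elsewhere. All 6 PV and 5 EXC libraries were in the sequencing pool POOL6188, and EXC replicate 3 and 4 VIP libraries in POOL7099. Of the rest, 5 SST and 2 VIP libraries were in POOL7098 and SST replicate 5 in POOL7100. PV thus shared no pool with SST or VIP, and pool and subtype cannot be told apart in those comparisons. Summed over 10 markers of ciliated ependymal cells, PV libraries held 88.9 to 358 CPM and no other library more than 11.4. All 10 of these markers were called higher in PV than in EXC, in SST and in VIP. Summed over 6 astrocyte markers, libraries held 109 to 279.5 CPM in PV, 17.5 to 482 in EXC, 22.3 to 52.4 in SST and 46.7 to 182 in VIP, and 0, 5 and 3 of the 6 were called higher in PV than in EXC, SST and VIP. In SST 5 of the 6 were lower than in EXC and 1 lower than in VIP, and 4 were higher in EXC than in VIP. Summed over 8 oligodendrocyte markers, they held 95.9 to 3413 CPM in EXC, 134 to 526 in PV, 91.0 to 239 in SST and 60.7 to 899.7 in VIP. Of the 7 tested, 5 were lower in PV and 6 lower in SST than in EXC, 5 were higher in EXC than in VIP, 1 was higher in PV than in SST and 1 was lower in SST than in VIP.

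The summed reads of the 45 members made up the largest share of nuclear reads in PV. The lowest, median and highest share was 0.801%, 0.833% and 0.914% in PV, 0.371%, 0.390% and 0.478% in SST, 0.137%, 0.319% and 0.429% in EXC, and 0.158%, 0.327% and 0.396% in VIP. Every PV library lay above every library of the other subtypes, while the ranges of SST, EXC and VIP overlapped. In bulk samples, fewer cells of a type and less RNA per cell cannot be told apart.

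**Figure D1:**
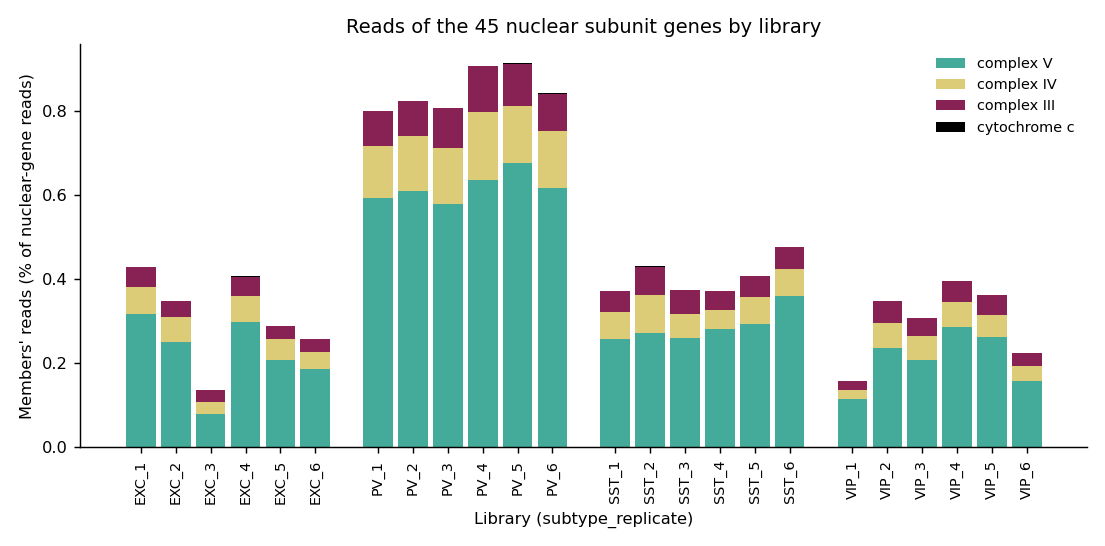
Stacked bars give, for each of the 24 libraries, the reads of the 45 members as a percentage of nuclear-gene reads, split into complex V, complex IV, complex III and cytochrome c. The 6 PV bars end between 0.801% and 0.914%, above the other 18, and EXC replicate 3 (0.137%) and VIP replicate 1 (0.158%) are the shortest.

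The split between the complexes was led by complex V in each subtype, and within it by the catalytic head genes. Atp5b and Atp5a1 alone took 34.3% to 59.0% of the members' reads in a library. With both left out, the remaining members summed to 3341 to 4790.0 CPM in PV, 1527 to 2550.3 in SST, 898 to 1831 in EXC and 695 to 1777 in VIP, so PV stayed above the others without these genes. Mitochondrial share, ciliated marker sum and member share also varied among the PV libraries. PV replicate 5 had the lowest mitochondrial share (14.4%) and the lowest ciliated sum (88.9 CPM) of the PV libraries, and the highest member share (0.914%). PV replicate 6 had the highest of both (52.9% and 358 CPM) with a member share of 0.842%. These are only the extreme PV libraries, and how either measure relates to the member share was not tested.

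Of the 45 members, 37 passed the filter on low counts, and the same 37 also pass when the PV libraries are left out. Tests were edgeR's quasi-likelihood F tests on all 24 libraries with sex as a covariate, adjusted by Benjamini-Hochberg over 15120 nuclear genes, and a gene is called at an adjusted p under 0.05. Fold changes are log2 values with a standard error. The 3 PV comparisons share the PV libraries and are not independent of each other.

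In PV against EXC, 33 of the 37 tested members were called higher and 0 lower, where 20.1% of all genes were called higher and 25.2% lower. In PV against SST, 30 were higher and 0 lower, with 11.2% and 14.7% of all genes. In PV against VIP, 35 were higher and 0 lower, with 21.7% and 26.5% of all genes. No member was lower at an unadjusted p under 0.05 in these 3 comparisons, with edgeR or with DESeq2. The members' median log2 fold change was 1.31, 0.97 and 1.54 against EXC, SST and VIP, where the median over all genes was -0.13, -0.03 and -0.09. All 37 had their highest mean in PV, and 29 were called higher in all 3 comparisons. For all genes that last share was not counted, and it cannot exceed the 11.2% called higher against SST.

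The libraries themselves separated for most members. The 6 PV libraries lay above all 6 EXC libraries for 30 tested members, above all SST libraries for 25 and above all VIP libraries for 31, where 12.6%, 9.09% and 12.7% of all genes did so. For 23 members every PV library lay above all 18 others. The share of all genes that did so was not counted, but it cannot exceed the 9.09% that lay above all SST libraries. Within POOL6188, where 6 PV and 5 EXC libraries can be compared, 33 of 37 members were again called higher, with a median of 1.19. Shares of all genes called are given only for the fit of subtype and sex on all 24 libraries. They are not given for this fit or for the pool fit that follows. With pool as a covariate, PV is linked to SST and VIP through EXC replicate 3 alone, and only 1 member was called higher in PV than in SST (3 lower) and 1 in PV than in VIP. The part of the ciliated ependymal, astrocyte and oligodendrocyte markers and of the mitochondrial reads in these differences was not tested.

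**Figure D2:**
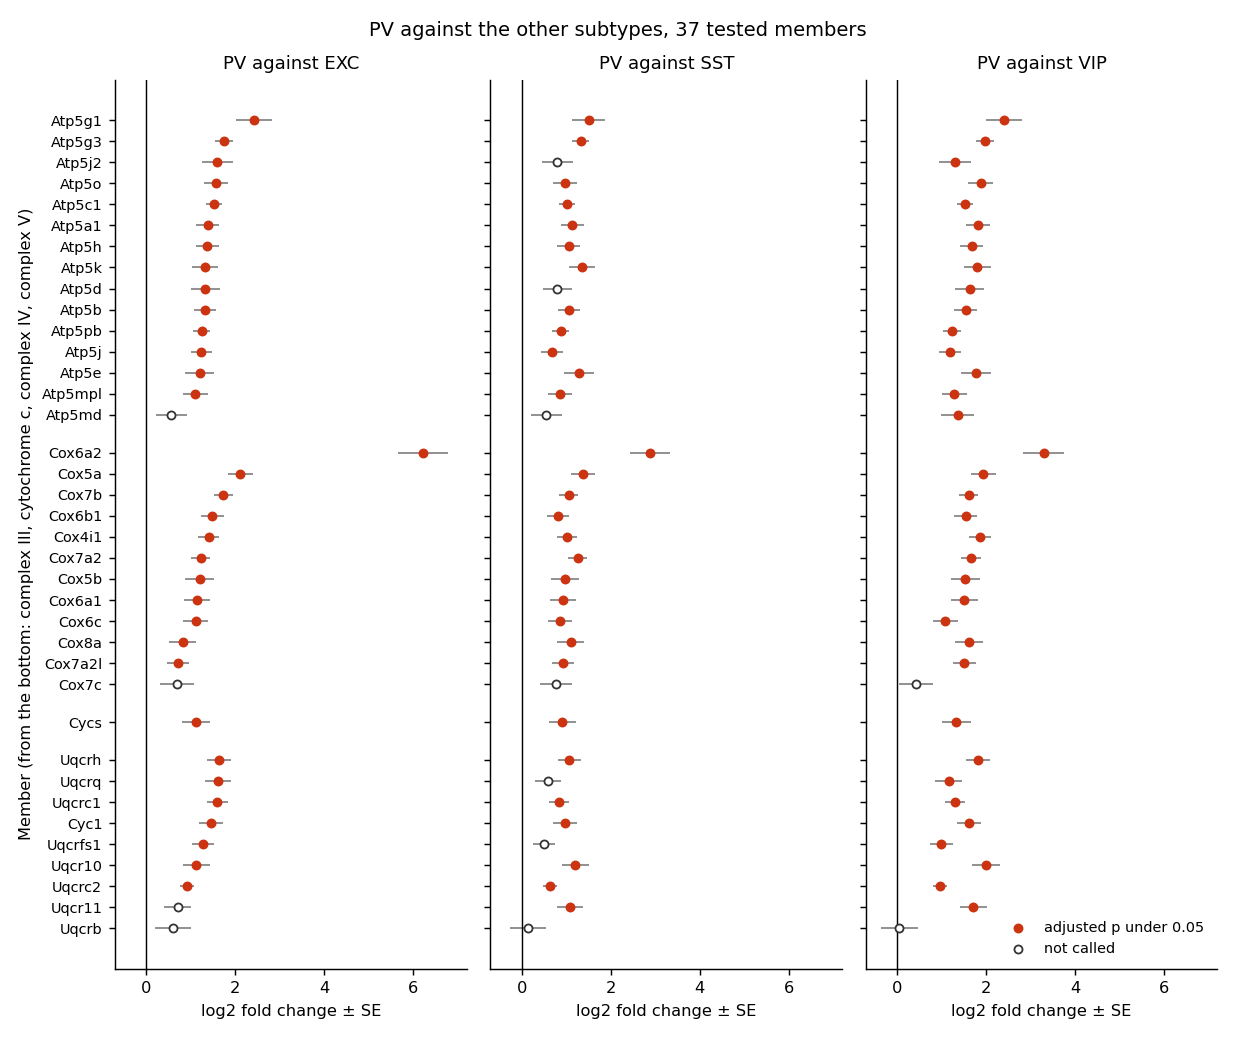
Each point is the log2 fold change of 1 of the 37 tested members in PV against EXC, SST or VIP, with its standard error; filled points passed an adjusted p of 0.05 and open points did not. Cox6a2 stands apart at 6.22, 2.88 and 3.29, most other members lie between 0.5 and 2.5, and Uqcrb and Cox7c are open in every panel.

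In complex III the largest F was that of Uqcrh, the hinge protein that helps cytochrome c dock (NCBI Gene 66576, chromosome 4, 116066965 to 116075070). Its lowest, median and highest level was 82.7, 102 and 118 CPM in PV, 37.8, 42.2 and 66.3 in SST, 10.2, 30.4 and 47.1 in EXC and 10.5, 34.6 and 44.2 in VIP. PV lay above the other subtypes with no overlap, and SST, EXC and VIP overlapped. PV exceeded EXC by 1.63 ± 0.27 (adjusted p = 1.64e-05), SST by 1.07 ± 0.26 (adjusted p = 0.00315) and VIP by 1.82 ± 0.27 (adjusted p = 6.14e-06).

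The core proteins of complex III, which form its large matrix-side arm, were also higher in PV. Uqcrc1 (NCBI Gene 22273, chromosome 9, 108936648 to 108949641) ran at 108, 137 and 154 in PV, 54.2, 71.2 and 91.6 in SST, 26.1, 43.7 and 54.7 in EXC and 27.1, 57.3 and 96.5 in VIP. Only PV stood clear of the rest, by 1.60 ± 0.23, 0.84 ± 0.23 and 1.30 ± 0.23 against EXC, SST and VIP (adjusted p = 2.44e-06, 0.00661 and 5.12e-05). Uqcrc2 (NCBI Gene 67003, chromosome 7, 120635189 to 120659523) moved less, with 241, 250.1 and 322 in PV, 149.6, 170.0 and 202 in SST, 86.0, 136 and 173 in EXC and 97.0, 146 and 175 in VIP. Its PV libraries still did not overlap with the others, and its log2 fold changes were 0.92 ± 0.16, 0.63 ± 0.16 and 0.96 ± 0.16 (adjusted p = 3.60e-05, 0.00399 and 2.61e-05).

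Of the electron carriers in complex III, Cyc1 encodes cytochrome c1 (NCBI Gene 66445, chromosome 15, 76343513 to 76346260). It ran at 121, 152 and 193 in PV, 62.0, 73.3 and 105 in SST, 20.8, 56.0 and 82.2 in EXC and 26.3, 53.3 and 83.6 in VIP, and PV was higher by 1.45 ± 0.27, 0.98 ± 0.27 and 1.62 ± 0.28 (adjusted p = 1.02e-04, 0.00823 and 3.30e-05). No PV library overlapped with another subtype. Uqcrfs1, the Rieske iron-sulfur protein, was higher in PV than in EXC (1.28 ± 0.25, adjusted p = 1.72e-04) and VIP (1.00 ± 0.25, adjusted p = 0.00210), and its difference from SST was 0.50 ± 0.25 (adjusted p = 0.149). Its highest EXC library, at 97.0 CPM, was EXC replicate 3, the library with the lowest summed member share. Cycs, cytochrome c itself, was called higher in PV in each comparison, at 7.13, 9.63 and 20.1 against 2.95, 4.76 and 7.36 in EXC, 4.18, 5.34 and 7.83 in SST and 2.97, 4.27 and 5.42 in VIP, with overlap except against VIP.

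Among the small subunits, Uqcr10 was called higher in PV in all 3 comparisons. Uqcrq, a subunit beside cytochrome b, ran at 34.9, 49.1 and 68.5 in PV, 22.5, 32.1 and 43.7 in SST, 5.84, 14.8 and 27.6 in EXC and 9.90, 25.5 and 33.4 in VIP. PV and SST overlapped for Uqcrq (0.59 ± 0.29, adjusted p = 0.143), and in a fit of those subtypes alone the difference was called (0.72, adjusted p = 0.00135). Uqcr11 ran at 15.1, 18.4 and 32.7 in PV, 5.56, 8.76 and 17.4 in SST, 8.63, 13.6 and 14.4 in EXC and 2.58, 6.58 and 10.7 in VIP. Its difference from EXC was 0.71 ± 0.30 (adjusted p = 0.0541, and 0.0369 with DESeq2), and it was called higher than in SST (1.09 ± 0.30, adjusted p = 0.00732) and VIP (1.72 ± 0.31, adjusted p = 7.27e-05). Without PV replicate 4 the difference from SST was 0.83 (adjusted p = 0.0513). Uqcrb, which sits by the ubiquinone pocket, had the smallest F of the 37 tested members, at 5.52, 8.33 and 11.3 in PV, 2.66, 5.98 and 17.7 in SST, 2.81, 3.40 and 13.2 in EXC and 5.69, 7.80 and 9.90 in VIP, and was called in no comparison.

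In complex IV, 11 of 12 tested members were called higher in PV in each PV comparison, and the exception in each was Cox7c. The subunits without tissue isoforms were led by Cox5a, which lies on the matrix side of the oxidase (NCBI Gene 12858, chromosome 9, 57517328 to 57532427). It ran at 162, 185 and 243 CPM in PV, 49.3, 68.3 and 109 in SST, 18.9, 39.1 and 71.1 in EXC and 18.3, 57.8 and 77.3 in VIP. PV was clear of every other library, by 2.11 ± 0.28, 1.38 ± 0.28 and 1.94 ± 0.28 (adjusted p = 7.94e-07, 4.51e-04 and 4.14e-06). Cox5b and Cox6c were called higher in PV in all 3 comparisons, with log2 fold changes of 0.97 to 1.53 and 0.86 to 1.11.

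Cox7b, a small membrane subunit encoded on the X chromosome (NCBI Gene 66142, chromosome X, 106015700 to 106022450), ran at 88.9, 99.9 and 113 in PV, 39.4, 45.5 and 59.6 in SST, 14.5, 26.5 and 42.5 in EXC and 17.6, 35.0 and 49.0 in VIP. PV was above the rest without overlap, by 1.73 ± 0.22, 1.06 ± 0.21 and 1.61 ± 0.22 (adjusted p = 2.49e-07, 4.08e-04 and 1.33e-06). Cox7a2, the ubiquitous form of subunit 7A (NCBI Gene 12866, chromosome 9, 79755241 to 79771422), ran at 86.0, 103 and 129 in PV, 30.1, 42.0 and 57.6 in SST, 21.6, 42.8 and 50.9 in EXC and 15.7, 37.9 and 43.5 in VIP. It too did not overlap, with differences of 1.23 ± 0.22, 1.26 ± 0.22 and 1.66 ± 0.22 (adjusted p = 4.14e-05, 6.58e-05 and 9.15e-07). Cox7a2l, a related factor that joins complexes III and IV into supercomplexes, ran at 53.4, 55.8 and 70.4 in PV, 22.1, 30.6 and 44.2 in SST, 16.0, 37.5 and 40.9 in EXC and 9.47, 23.1 and 32.6 in VIP. It was called higher in PV than in EXC (0.71 ± 0.24, adjusted p = 0.0189), but not without EXC replicate 3 (0.51, adjusted p = 0.0571) or without PV replicate 2 (0.60, adjusted p = 0.0633).

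The ubiquitous forms Cox4i1, Cox6b1 and Cox8a were called higher in PV in each comparison. Cox4i1, the largest nuclear subunit of the oxidase and the site of its regulation by ATP, ran at 249, 287 and 334 in PV, 91.8, 136 and 170.4 in SST, 41.4, 115 and 133 in EXC and 37.4, 89.3 and 115 in VIP. Its groups did not overlap with PV, and the differences were 1.40 ± 0.23, 1.02 ± 0.23 and 1.86 ± 0.24 (adjusted p = 2.05e-05, 0.00162 and 6.19e-07). Cox6b1, which faces cytochrome c, ran at 76.3, 91.3 and 107 in PV, 36.0, 54.7 and 62.4 in SST, 11.7, 33.8 and 38.8 in EXC and 12.9, 37.1 and 56.7 in VIP. Its difference from SST, 0.81 ± 0.25 (adjusted p = 0.0186), missed the threshold when PV replicate 2 or 4 or SST replicate 4 or 5 was left out (adjusted p of 0.0647, 0.0617, 0.0603 and 0.0559). Cox8a, the smallest subunit, ran at 73.6, 91.4 and 146 in PV, 25.4, 48.1 and 63.4 in SST, 19.8, 60.3 and 66.7 in EXC and 11.2, 38.8 and 60.8 in VIP. Its difference from EXC, 0.82 ± 0.30 (adjusted p = 0.0261), missed the threshold without EXC replicate 3 (0.60, adjusted p = 0.0689) and without PV replicate 4 (0.64, adjusted p = 0.0976). Cox7c ran at 3.06, 5.73 and 8.22 in PV, 2.46, 3.03 and 4.45 in SST, 2.11, 2.69 and 5.06 in EXC and 2.58, 3.73 and 7.09 in VIP, and these overlapping groups gave no call.

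Subunit 6A of the oxidase has a ubiquitous isoform, Cox6a1 (NCBI Gene 12861, chromosome 5, 115345652 to 115348958), and one best known from heart and skeletal muscle, Cox6a2 (NCBI Gene 12862, chromosome 7, 128205435 to 128206366). Cox6a2 was the member that differed most between the subtypes. In PV replicates 1 to 6 it stood at 38.6, 31.2, 36.2, 51.9, 42.4 and 21.9 CPM. SST ran from 3.80 to 7.60 with a median of 4.60, and VIP from 1.76 to 5.95 with a median of 4.26. In EXC 3 libraries had no read, and the others stood at 0.197, 0.621 and 1.68. PV lay above every other library, SST and VIP overlapped, and every EXC library lay below every SST and VIP library.

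Cox6a2 was called higher in PV than in EXC, SST and VIP by 6.22 ± 0.56, 2.88 ± 0.44 and 3.29 ± 0.47 (adjusted p = 7.88e-10, 1.53e-05 and 2.35e-06). It was also higher in SST than in EXC (3.33 ± 0.54, adjusted p = 1.81e-05) and lower in EXC than in VIP (-2.92 ± 0.57, adjusted p = 1.61e-04). SST and VIP differed by 0.41 ± 0.46 (adjusted p = 0.528). The counts behind these values are 472 reads in PV, 316 in SST, 124 in VIP and 18 in EXC. From summed reads per nuclear read, PV was 8.33-fold above SST (95% counting interval 7.21 to 9.64), 10.6-fold above VIP (8.65 to 13.0) and 84.0-fold above EXC (52.6 to 143), and these intervals cover counting error only. EXC replicate 6 held 12 of the 18 EXC reads, and without it PV was 205-fold above EXC (93.3 to 561), a check added after seeing the data. Within POOL6188 the difference between PV and EXC was 6.03 ± 0.58 (adjusted p = 2.36e-07). With pool as a covariate, which links PV to SST and VIP through EXC replicate 3 alone, the differences from SST and VIP turned to -2.10 ± 3.18 and -1.59 ± 2.84 (adjusted p = 0.679 and 0.772). The difference of SST from EXC became 8.14 ± 2.42 and that of EXC from VIP -7.62 ± 2.33 in that fit. Both also rest on EXC replicate 3 alone for their link between pools.

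Cox6a1 was also higher in PV. It ran at 118, 155 and 207 in PV, 55.2, 78.0 and 99.7 in SST, 25.9, 73.0 and 80.0 in EXC and 13.6, 57.8 and 121 in VIP, and 1 VIP library reached into the PV range. PV was higher by 1.14 ± 0.29, 0.92 ± 0.29 and 1.51 ± 0.30 (adjusted p = 0.00251, 0.0205 and 2.12e-04). Without PV replicate 4, SST replicate 4 or SST replicate 6 the difference from SST was 0.71, 0.80 or 0.88 (adjusted p = 0.0998, 0.0649 and 0.0519).

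Compared per length within each library, from the deposited RPKM, Cox6a2 made up 16.3% ± 3.62 of subunit 6A transcripts in PV, 5.81% ± 2.51 in VIP, 5.07% ± 1.47 in SST and 0.454% ± 0.721 in EXC (SD, n = 6 each). The PV range was 10.3% to 21.0%, and the highest VIP library (10.4%) was the only one to reach it. Two-sided exact permutation tests over 6 against 6 libraries, adjusted over 48 isoform shares and pairs, gave 0.0260 for PV against EXC and against SST, 0.0416 for PV against VIP, 0.0260 for SST against EXC and for EXC against VIP, and 0.816 for SST against VIP. The smallest unadjusted p such a test can give is 0.00216. Cox6a1 thus remained the major isoform per length in every library. Summed over 5 markers of striated muscle, libraries held at most 2.76 CPM in PV, 5.70 in SST, 5.61 in VIP and 3.08 in EXC, and PV replicate 6 held none.

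**Figure D3:**
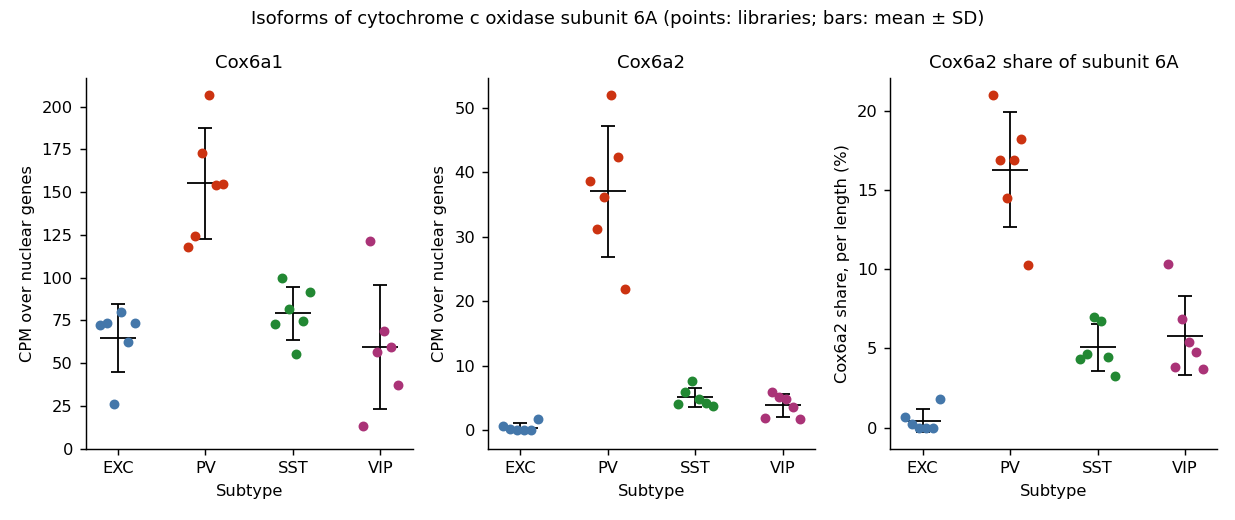
Points are libraries and bars the mean ± SD of 6 libraries, for the level of Cox6a1, the level of Cox6a2 (both in CPM over nuclear genes) and the share of Cox6a2 in subunit 6A per length (%). The PV points of Cox6a2 lie between 21.9 and 51.9, all above the other subtypes, and the EXC points lie at or near 0.

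The other tissue-restricted isoforms of complex IV were close to absent. Summed over all 24 libraries, Cox7a1, the heart and muscle form of subunit 7A, had 40 reads, the testis forms Cox7b2 and Cox6b2 had 30 and 23, Cox4i2, known from lung and oxygen-sensing cells, had 21, and Cox8b, another muscle form, had 9. None of these 5 passed the filter. Cox8c had 0 reads among 148876471 nuclear reads, which allows a level of up to 0.0202 CPM (3 reads). Per length, Cox7a1 made up 1.08% ± 1.04 of Cox7a1 and Cox7a2 in PV, 1.01% ± 0.457 in SST, 1.02% ± 0.947 in EXC and 1.95% ± 0.835 in VIP (SD, n = 6 each), and no pair passed the adjusted exact permutation test. The same held for the shares of Cox4i2, Cox6b2 and Cox7b2, whose group means were between 0.0318% and 2.57%.

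In complex V, 14, 12 and 15 of 15 tested members were called higher in PV than in EXC, SST and VIP. The catalytic head genes were the most abundant members per length: the mean deposited RPKM of Atp5b, the beta subunit, was 769 ± 107 in PV, 358 ± 99.2 in SST, 304 ± 117 in EXC and 284 ± 82.3 in VIP (SD, n = 6 each). Atp5a1, the alpha subunit, followed with 329.7 ± 22.0, 145 ± 15.9, 125 ± 50.2 and 99.7 ± 29.7. Both were called higher in PV in each comparison, by 1.31 ± 0.25, 1.06 ± 0.25 and 1.54 ± 0.25 for Atp5b and by 1.38 ± 0.26, 1.14 ± 0.26 and 1.81 ± 0.27 for Atp5a1.

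The rotor of the ATP synthase is a ring of c subunits on a central stalk. A family of 3 genes encodes the same mature c subunit. Shares within it are uncertain, because Atp5g2, with 54 reads in all, may be undercounted through near-identical pseudogene copies. Of the counted transcripts, Atp5g3 (NCBI Gene 228033, chromosome 2, 73908447 to 73912464) held 96.0% to 99.4% of the 3 genes per length in every library. Its level was 359.7, 422 and 504 CPM in PV, 134, 146 and 254 in SST, 71.1, 124 and 164 in EXC and 63.9, 126 and 140.5 in VIP. PV was far from overlap, by 1.75 ± 0.20 (adjusted p = 5.17e-08), 1.33 ± 0.20 (adjusted p = 9.02e-06) and 1.97 ± 0.20 (adjusted p = 1.10e-08) against EXC, SST and VIP. Atp5g1 ran at 9.19, 12.7 and 21.5 in PV, 3.47, 4.55 and 7.07 in SST, 0.508, 2.70 and 4.35 in EXC and 0.861, 3.18 and 4.12 in VIP, with differences of 2.42 ± 0.39, 1.50 ± 0.38 and 2.41 ± 0.40 (adjusted p = 1.44e-05, 0.00383 and 2.42e-05). Its share per length was 2.77% ± 0.719 in PV and 1.61% ± 0.656 in EXC (SD, n = 6 each; exact permutation p = 0.0152, adjusted p = 0.121).

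In the central stalk, Atp5c1, the gamma subunit that turns inside the head (NCBI Gene 11949, chromosome 2, 10056030 to 10080510), ran at 250.1, 336 and 395 in PV, 142, 159 and 175 in SST, 75.4, 102 and 152 in EXC and 59.8, 133 and 146 in VIP. No PV library overlapped with another subtype, and PV was higher by 1.53 ± 0.18, 1.01 ± 0.18 and 1.53 ± 0.18 (adjusted p = 9.20e-08, 8.93e-05 and 1.38e-07). The other stalk genes, Atp5d and Atp5e, were higher in PV than in EXC and VIP, and Atp5e also than in SST. For Atp5d the difference from SST was 0.80 ± 0.32 (adjusted p = 0.0693).

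The peripheral stalk holds the head still against the rotor, and its 4 tested genes were called higher in PV throughout. Atp5o, the oligomycin sensitivity protein (NCBI Gene 28080, chromosome 16, 91925223 to 91931630), ran at 69.9, 108 and 141 in PV, 32.3, 51.6 and 69.1 in SST, 16.2, 31.6 and 49.4 in EXC and 10.1, 31.1 and 53.0 in VIP. PV was above all others, by 1.57 ± 0.27, 0.97 ± 0.26 and 1.88 ± 0.27 (adjusted p = 2.56e-05, 0.00716 and 3.81e-06). Atp5pb, subunit b (NCBI Gene 11950, chromosome 3, 105942698 to 105959263), ran at 139, 161 and 200.1 in PV, 73.7, 84.1 and 110.4 in SST, 30.5, 67.5 and 85.6 in EXC and 52.7, 71.6 and 83.2 in VIP, again with PV clear of the rest, by 1.25 ± 0.19, 0.87 ± 0.19 and 1.24 ± 0.19 (adjusted p = 6.22e-06, 9.88e-04 and 1.04e-05). Atp5h and Atp5j completed the group, with log2 fold changes of 0.68 to 1.67.

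Of the small membrane subunits that tie synthase dimers together, Atp5k and Atp5mpl were called higher in PV in all 3 comparisons. Atp5j2 was called higher in PV than in EXC and VIP, and differed from SST by 0.80 ± 0.34 (adjusted p = 0.0819). Atp5md, which encodes DAPIT, had the smallest F of complex V. It ran at 4.58, 7.10 and 16.1 in PV, 4.77, 5.34 and 6.81 in SST, 2.87, 5.57 and 8.02 in EXC and 1.72, 3.40 and 6.21 in VIP, with much overlap, and only its difference from VIP was called (1.36 ± 0.37, adjusted p = 0.00369).

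The members not called in a PV comparison were few. Several were low in reads, but Uqcrfs1, Atp5d and Uqcrq had 10844, 9223 and 4146 reads in all. Atp5g1 and Cox6a2, with 662 and 930 reads, were called in each PV comparison. Those not called were Atp5md, Cox7c, Uqcr11 and Uqcrb against EXC, Atp5d, Atp5j2, Atp5md, Cox7c, Uqcrb, Uqcrfs1 and Uqcrq against SST, and Cox7c and Uqcrb against VIP. The deposited counts hold only reads that align to a single place, and several members have near-identical pseudogene copies. Cox7c had 531 reads in all libraries, Cycs 844, Cox5b 866 and Uqcrb 1038, against 19309 for Cox4i1, and Atp5l and Atp5g2, with 114 and 54 reads, did not pass the filter. Levels of these genes are therefore uncertain, and how many reads were lost to such copies was not tested.

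Between the other subtypes fewer members were called. In SST against EXC, 8 of 37 were called higher and 0 lower, where 17.1% of all genes were called higher and 21.2% lower. These were the complex III genes Uqcrc1, Uqcrfs1 and Uqcrq, the complex IV genes Cox5a, Cox6a2, Cox6b1 and Cox7b, and Atp5c1. Apart from Cox6a2, their log2 fold changes ran from 0.52 (Atp5c1) to 1.02 (Uqcrq), and Cox6a2 alone had no overlap between the libraries, where 10.7% of all genes lay higher without overlap. The count was 24 with pool as a covariate, 13 without VIP replicate 1, and 5 without EXC replicate 3 and SST replicate 5 together. In the pool fit EXC is linked to SST through EXC replicate 3 alone, the EXC library with the lowest member share. No member was lower at an unadjusted p under 0.05 with edgeR or DESeq2.

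In SST against VIP, 6 of 37 were called higher and 0 lower, where 14.5% of all genes were called higher and 16.6% lower. They were Uqcrh (0.74 ± 0.27, adjusted p = 0.0397), Cox4i1 (0.84 ± 0.24, 0.00956), Cox6b1 (0.73 ± 0.26, 0.0369), Atp5o (0.91 ± 0.28, 0.0137), Atp5g3 (0.64 ± 0.20, 0.0164) and Atp5c1 (0.52 ± 0.18, 0.0295). None was free of overlap. Although 35 of 37 members had a positive difference, this count hung on single libraries: it was 2 without SST replicate 2, 3 without VIP replicate 1, 17 without EXC replicate 3, 13 without PV replicate 4, 12 without VIP replicate 2, 11 without VIP replicate 4, and 10 without EXC replicate 4 or 5, PV replicate 6 or VIP replicate 5. With pool as a covariate 16 members were called higher, and within POOL7098, 5 SST against 2 VIP libraries, 18. No member was lower at an unadjusted p under 0.05 with edgeR or DESeq2.

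In EXC against VIP, 4 members were called higher and 1 lower, where 20.6% of all genes were called higher and 18.4% lower. Higher in EXC were Uqcr11 (1.01 ± 0.31, adjusted p = 0.0108), Uqcr10 (0.88 ± 0.31, 0.0275), Cox7a2l (0.80 ± 0.25, 0.0118) and Cox8a (0.79 ± 0.30, 0.0403), all with overlap between the libraries. Cox6a2 was the one called lower in EXC. The count of higher members was 9 without EXC replicate 3 and 2 without EXC replicate 1, EXC replicate 4 or VIP replicate 1, and that of lower members was 2 without EXC replicate 3 or 4. With pool as a covariate 0 members were called higher and 13 lower in EXC than in VIP, a fit that links these subtypes through EXC replicate 3 alone. With plain shares of nuclear reads in place of TMM factors 2 members were called higher, and Cox8a was not called (0.67, adjusted p = 0.104).

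By the overall test of any difference between the 4 subtypes, 35 of 37 members passed, all but Cox7c and Uqcrb, where 68.1% of all genes did. Cox6a2, Atp5g3, Atp5c1, Cox7b and Cox5a had the largest F values, in that order.

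**Figure D4:**
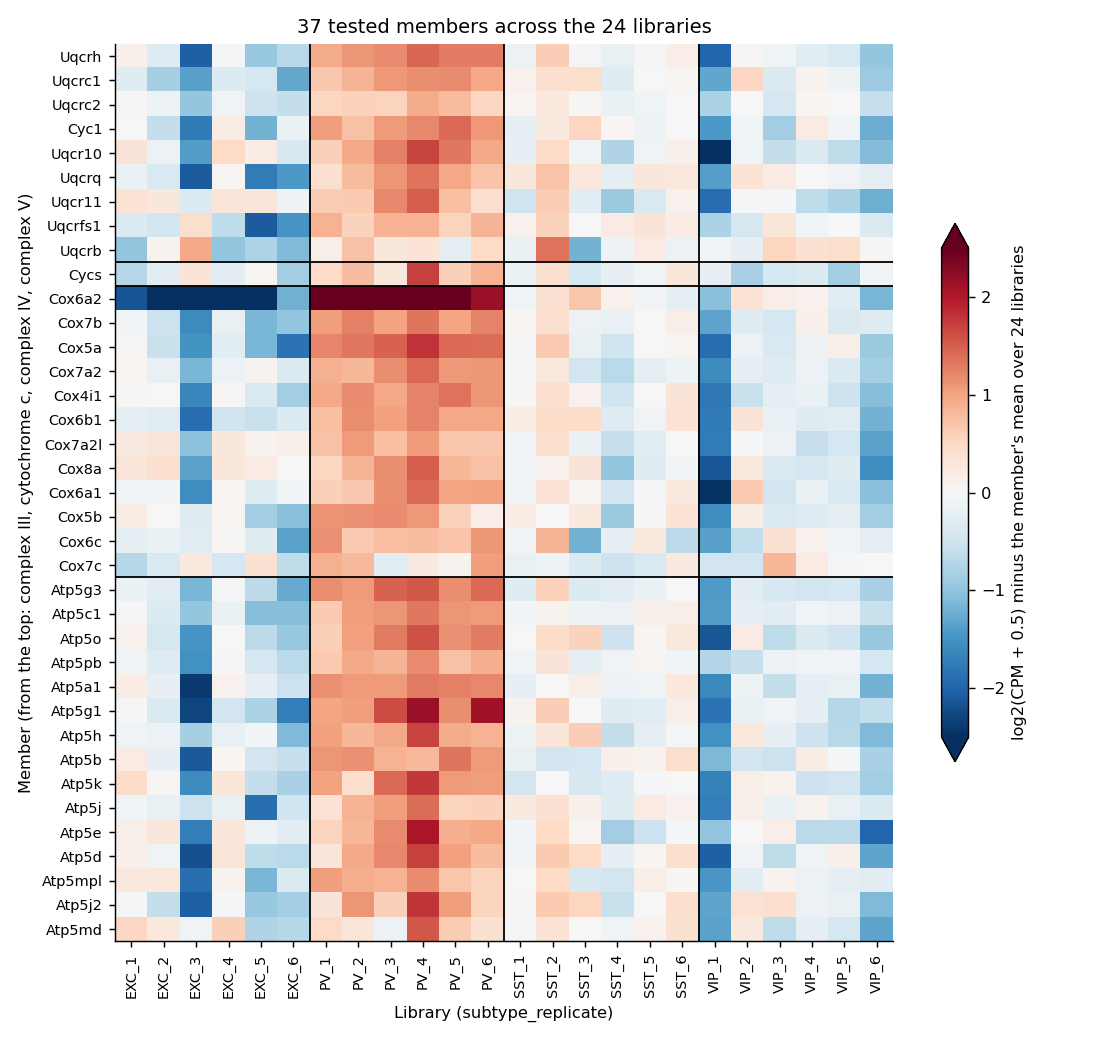
Rows are the 37 tested members, grouped by complex, and columns the 24 libraries; colour gives log2(CPM over nuclear genes + 0.5) minus the member's mean over all libraries. The 6 PV columns are red for nearly all members, and the columns of EXC replicate 3 and VIP replicate 1 are the bluest of their subtypes.

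The libraries of a subtype varied together across members. VIP replicate 1 was the lowest VIP library for 33 of the 37 members and EXC replicate 3 the lowest EXC library for 25, while PV replicate 4 was the highest PV library for 27 and SST replicate 2 the highest SST library for 25. The median coefficient of variation of a member over 6 libraries was 21.1% in PV, 23.6% in SST, 38.6% in EXC and 41.0% in VIP. Left out together, a choice made after seeing the data, EXC replicate 3 and VIP replicate 1 changed the members called higher in PV to 34, 33 and 35 against EXC, SST and VIP, with medians of 1.19, 0.97 and 1.41.

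No member was called by sex. In female against male libraries, 0 of 37 were higher and 0 lower with edgeR and with DESeq2, and 0 passed an unadjusted p of 0.05 with either, where 0.0132% of all genes were called higher and 0.0265% lower. The members' median difference was 0.14, with 33 of 37 positive, where the median over all genes was -0.02.

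The genes whose levels followed Cox6a2 most closely over the 24 libraries, by Pearson r of log2 values, were Kcnk3 (0.952), Ubash3b (0.942), Trmt2b (0.941), Lgi2 (0.939), Fam43a (0.937), Gas6 (0.936), Pcp4l1 (0.934) and St3gal6 (0.932). The libraries share subtype, pool and depth differences, so these r values are a description. Kcnk3, a potassium leak channel gene, averaged 72.5 ± 12.8 CPM in PV, 23.2 ± 4.54 in SST, 11.9 ± 5.66 in VIP and 5.80 ± 3.25 in EXC (SD, n = 6 each). Among members the closest were Cox7b (r = 0.829) and Uqcrc1 (0.821), at ranks 250 and 294 of 12818 genes.

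Other genes of the pathway were counted from fixed lists. Of all genes, 20.1%, 11.2% and 21.7% were called higher in PV than in EXC, SST and VIP, and 25.2%, 14.7% and 26.5% lower. Complex II, which feeds electrons from succinate and is wholly nuclear-encoded, had 4, 3 and 4 of 4 genes called higher in PV than in EXC, SST and VIP, with medians of 0.99, 0.74 and 1.25. Sdha, its flavoprotein, ran at 738, 801 and 896 CPM in PV, 400.4, 409 and 518 in SST, 167, 405 and 541 in EXC and 302, 366 and 459 in VIP. Only PV stood apart for Sdha, by 0.94 ± 0.18, 0.92 ± 0.18 and 1.16 ± 0.18 (adjusted p = 1.30e-04, 3.59e-04 and 1.04e-05).

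Assembly factors of the complexes were counted next, to be read beside the same shares of all genes. Of 6 for complex III, 2, 0 and 2 were called higher in PV than in EXC, SST and VIP and 0 lower, with edgeR. Of 24 tested for complex IV, 11, 5 and 11 were higher and 0, 0 and 1 lower, and their medians were 0.63, 0.36 and 0.65. Cmc2, a factor of oxidase assembly, was higher in all 3 (1.60 ± 0.36, 1.09 ± 0.35 and 2.24 ± 0.37; adjusted p = 6.97e-04, 0.0224 and 2.31e-05), and Cox16 was the one lower, against VIP (-1.26 ± 0.38, adjusted p = 0.00835). Of 5 genes for assembly or inhibition of complex V, 5, 4 and 3 were higher. Atpif1, the inhibitor that stops ATP synthase running backwards, differed by 1.33 ± 0.26, 0.70 ± 0.26 and 1.55 ± 0.27 (adjusted p = 1.36e-04, 0.0434 and 3.31e-05).

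From a list for phosphate supply and ATP export, 8, 5 and 8 of 8 genes were called higher in PV than in EXC, SST and VIP. Slc25a5, an ADP/ATP translocase, differed by 1.90 ± 0.25, 1.14 ± 0.24 and 1.85 ± 0.25 (adjusted p = 4.53e-07, 7.35e-04 and 1.06e-06), and Ckb, brain creatine kinase, by 2.07 ± 0.32, 1.51 ± 0.32 and 2.23 ± 0.33 (adjusted p = 7.55e-06, 7.50e-04 and 4.09e-06). Another translocase gene, Slc25a4, was close in PV and SST, at 777, 949 and 1045 and 644, 766 and 1059 CPM (0.18 ± 0.15, adjusted p = 0.411).

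Of 15 nuclear regulators of respiratory genes, 5 were called higher in PV in each comparison, and 3, 1 and 2 lower, against EXC, SST and VIP. Among all genes 20.1%, 11.2% and 21.7% were called higher and 25.2%, 14.7% and 26.5% lower. Ppargc1a, the coactivator PGC-1 alpha, ran at 741, 831 and 951 CPM in PV, 239, 296 and 368 in SST, 78.5, 115 and 143 in EXC and 222, 247 and 303 in VIP. Esrrg, an estrogen-related receptor, ran at 348, 400.2 and 423 in PV, 64.7, 74.8 and 94.0 in SST, 9.54, 29.4 and 36.0 in EXC and 37.3, 52.4 and 54.2 in VIP. For both, PV lay above every other library, by 2.88 ± 0.17, 1.48 ± 0.16 and 1.73 ± 0.17 for Ppargc1a and by 3.80 ± 0.24, 2.32 ± 0.22 and 3.02 ± 0.23 for Esrrg (adjusted p of 9.26e-08 and 9.03e-09 or less in each). Gabpa, which encodes the DNA-binding part of NRF2/GABP, was lower in PV in each comparison (-0.98 ± 0.23, -0.70 ± 0.23 and -1.14 ± 0.23; adjusted p = 0.00107, 0.0239 and 2.68e-04). Nrf1 itself was not called (-0.58 ± 0.25, -0.45 ± 0.25 and -0.58 ± 0.25). Of the other estrogen-related receptor genes listed, Esrrb was called higher in PV in each comparison (4.58 ± 0.86, 3.88 ± 0.78 and 2.21 ± 0.73, adjusted p = 9.06e-05, 4.45e-04 and 0.0153). Esrra was called higher in PV than in EXC and SST (1.71 ± 0.35 and 1.22 ± 0.33, adjusted p = 2.15e-04 and 0.00748). The difference of Esrra from VIP was 0.79 ± 0.34 (adjusted p = 0.0573).

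The mitochondrially encoded partners of these complexes also ranged widely between libraries. Cytochrome b (CYTB), the core of complex III, ran at 35029, 102863 and 213661 CPM in PV, 8947, 12669.6 and 14307 in SST, 7487, 14676 and 22914 in EXC and 2995, 19759 and 40091 in VIP. COX1, the catalytic subunit of the oxidase, ran at 44955, 106490.0 and 243173 in PV, 9974, 16485 and 20366 in SST, 8419, 18575 and 24334 in EXC and 3492, 22876 and 54785 in VIP. For both genes the PV and VIP ranges overlapped, unlike those of the summed nuclear members.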

How the data were processed

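RNA of 24 sorted libraries, 6 each of EXC, PV, SST and VIP, was sequenced and aligned with GSNAP to GRCm38, per the submitters' processing notes; its version, the counting program and the strand setting were not given in the sources used here. The deposited count column, per the file headers, holds the authors' reads aligning uniquely to a gene, and the second column holds RPKM values adjusted by the authors' size factors. Counts served for levels and tests, and RPKM only for comparisons per length. Genes are NCBI Gene numbers, and 31049 matched a RefSeq symbol. Those without a symbol held 0.862% to 3.00% of all reads, mitochondrial ones included.

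Genes of the mitochondrial genome were taken out of the table and of the library sizes. Genes were filtered with filterByExpr by subtype, scaled by TMM over nuclear genes, and tested in edgeR 4.0.16 (R 4.3.3) with a model of subtype and sex on all 24 libraries. The script was tested on simulated data. Isoform shares were compared by exact permutation tests. DESeq2 1.42.0, other scalings and filters, pool as a covariate, within-pool fits and fits leaving out libraries were tried as alternatives. Shares of all genes called are not given for these alternatives. Replicate numbers follow accession order, and no paired analysis was possible because the labels carry no replicate numbers.

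Named are all isoform-family members and members against the main direction in a pair. In each complex the 4 members with the largest and the 1 with the smallest F were named. From other genes, up to 4 per pathway list were named, with Esrra and Esrrb added among the regulators, and the 8 most like Cox6a2. The other members were named after their values were seen. Members, lists and rules were chosen with earlier results of these data known.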

Additional observations from a re-analysis of the deposited data

Results flagged for a closer look

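In each group of 6 libraries, the highest and lowest value was compared with the gap to its nearest neighbour for the named members and isoform shares. Of 124 groups, 16 held a library that stood apart. The rule's expected share by chance is about 1 in 20. The groups share libraries that vary together, and some isoform shares are mostly 0, so the count cannot be judged against that rate. EXC replicate 3 stood low for Cox6a1 (25.9 CPM, the other EXC libraries 62.5 to 80.0), Cox6b1 (11.7, others 30.6 to 38.8), Cox7a2l (16.0, others 35.2 to 40.9) and Cox8a (19.8, others 50.7 to 66.7). SST replicate 2 stood high for Atp5g3 (254, others 134 to 171), Uqcrb (17.7, others 2.66 to 7.70) and Uqcrh (66.3, others 37.8 to 48.4). Atp5md stood high in PV replicate 4 (16.1, others 4.58 to 8.28), and Cox6a2 in EXC replicate 6 (1.68, others up to 0.621).

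Among isoform shares per length, all on few reads, the libraries that stood apart were SST replicate 3 for Atp5g2 (0.711%), VIP replicate 2 for Cox4i2 (1.21%), EXC replicate 3, PV replicate 3 and VIP replicate 6 for Cox6b2 (3.44%, 1.76% and 0.557%), and EXC replicate 3 and VIP replicate 1 for Cox7b2 (11.5% and 4.30%).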

How the results depend on the processing

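The counts of members called higher in PV kept within 1.5 times of 33 (against EXC), 30 (against SST) and 35 (against VIP) under every scaling, filter, test and left-out library tried. Leaving out 1 library in turn gave 31 to 34, 23 to 31 and 35 to 35. The exception was pool as a covariate, where PV is linked to SST and VIP through EXC replicate 3 alone: 1 member was then higher in PV than in SST and 3 lower, and 1 was higher in PV than in VIP. That term also links EXC to SST and VIP through EXC replicate 3 alone, and it turned the sign of named members. In PV against SST the values became Atp5o -1.01, Atp5pb -0.52, Cox4i1 -0.68, Cox5a -0.22, Cox6a1 -1.54, Cox6a2 -2.10, Cox6b1 -1.29, Cox7a2 -0.26, Cox7a2l -0.60, Cox7b -0.59, Cox8a -1.16, Cyc1 -1.49, Uqcrc1 -0.66, Uqcrc2 -0.61, Uqcrh -1.02. In PV against VIP they became Atp5pb -0.13, Cox6a1 -0.27, Cox6a2 -1.59, Cox6b1 -0.25, Cox8a -0.27, Cyc1 -0.22, Uqcrh -0.051, Uqcrq -0.54. In EXC against VIP they became Cox6b1 -1.57, Cox7a2l -0.48, Cox8a -0.93, Cyc1 -1.52, Uqcrc2 -0.81, Uqcrh -1.51, and in SST against EXC Cox7a2 1.36, Cox8a 1.82.

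The counts between the other subtypes were not stable, and shares of all genes called under these settings are not given here. Those of EXC with pool as a covariate rest on EXC replicate 3 alone for the link to SST and VIP. In SST against EXC (8 higher) the count was 15 with no filter, 24 with pool as a covariate and 5 without EXC replicate 3 and SST replicate 5, and 6 to 13 with 1 library left out. In SST against VIP (6 higher) it was 3 with plain shares, 18 with no filter, 16 with pool as a covariate, 13 without EXC replicate 3 and SST replicate 5, 12 in a fit of those subtypes alone, 18 within POOL7098, and 2 to 17 with 1 library left out. In EXC against VIP, 4 higher became 2 with plain shares, 0 with pool as a covariate, 8 without EXC replicate 3 and SST replicate 5, 2 in a fit of those subtypes alone, and 2 to 9 with 1 library left out. The 1 lower became 13 with pool as a covariate, 2 without EXC replicate 3 and SST replicate 5, 2 without EXC replicate 3 and VIP replicate 1 (chosen after seeing the data), and 1 to 2 with 1 library left out. The cause was not tested. In PV replicate 6, with 729778 nuclear reads, Cox6b2, Cox7a1, Cox7b2, Cox8b and Cox8c had no read. In EXC replicate 5, with 7311306 nuclear reads, 7 members had no read. How depth bears on the low members was not tested.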
